A study of Mus musculus with 6 samples.

Results

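The cytosolic ribosomal protein genes described here are all protein-coding genes whose symbol is Rpl, Rps or Rplp followed by a digit, or Rpsa, without the Rps6k kinase genes. The rule uses the symbol alone and no measured value. It found 91 genes among 21887 protein-coding genes of the RefSeq table of GRCm38. Of these, 77 encode core subunits of the ribosome (46 of the large and 31 of the small subunit). The other 14 are paralogs, retroposed copies and relatives by name, such as Rpl3l, Rpl39l, Rps27l, Rps23rg1 and Rps19bp1, which encodes a protein that binds RPS19.

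Ribosomal proteins and ribosomal RNA form the ribosome, which makes all cytosolic protein. Their genes are short, are transcribed at high and similar rates in nearly every cell, and yield mRNAs that begin with a tract of pyrimidines (the 5′ terminal oligopyrimidine motif), through which mTOR signaling controls their translation. Promoters of such busy genes are open, and open chromatin can give ChIP signal that does not depend on the protein under study. The genes therefore serve as a check of signal at highly transcribed genes.

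ChIP-Seq was performed on p53 KO mouse embryonic fibroblasts (MEFs; primary cells of C57BL/6 embryos) with a doxycycline-inducible construct (Retro-X Tet-One) for FLAG-tagged Onecut3. Onecut3 is one of the CUT homeobox transcription factors. ONECUT3-OE cells received doxycycline at 100 ng/mL, and 3 libraries from them were made with an anti-FLAG antibody. The series also holds 1 input and 1 IgG library of ONECUT3-OE cells and 1 anti-FLAG library of cells without doxycycline; these 3 libraries were not analysed here. All groups lack p53, and Onecut3 came from the induced construct. The peak lists that the authors made from FLAG replicates 1, 2 and 3 hold 31600, 12856 and 24822 peaks. Each peak has a fold, the ratio of ChIP pileup to the expected control background after 1 is added to both, and a q value. The lists hold no read totals, so depth is unknown, and folds are compared only within a list. Peaks overlapping by at least 1 bp were merged, and regions to which all lists contribute a peak (5114 in all) are called shared. The lists hold no expression values, so neither the fibroblast label nor the transcription of any gene was checked here, and whether the replicates were separate cultures is not stated, so spreads and p-values cover these libraries only and may be technical. Coordinates are of GRCm38.

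Stretches of 3 promoters are shown as examples, 1 with a shared region at the start, 1 with peaks in 2 lists only and 1 with the core letters of Onecut sites, whose shared region lies downstream of the stretch. Each runs from 250 bases before an annotated transcription start to 20 bases from the start on, read 5′ to 3′ on the strand of the gene from the RefSeq table of GRCm38.p6. At Rplp0, which encodes the stalk protein P0 of the large subunit, the peaks of all 3 lists cover the start. At Rpl10, which encodes a protein near the catalytic core of the large subunit, peaks of replicates 1 and 3 lie just upstream of it. In both, capitals mark the bases covered by every list that has a peak there. Rps24, of the small subunit, is shown because, of the promoters at hand for genes with a shared region, it alone holds ATCAAT, the reverse complement of the core letters ATTGAT of Onecut sites (capitals).
Rplp0 (chr5:115559217-115559486, plus strand): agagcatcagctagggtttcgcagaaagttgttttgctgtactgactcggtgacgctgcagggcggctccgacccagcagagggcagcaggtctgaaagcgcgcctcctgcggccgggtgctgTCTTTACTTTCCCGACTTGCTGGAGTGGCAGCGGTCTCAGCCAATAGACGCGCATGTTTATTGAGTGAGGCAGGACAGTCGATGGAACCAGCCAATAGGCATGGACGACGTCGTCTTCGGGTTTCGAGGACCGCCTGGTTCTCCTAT
Rpl10 (chrX:74270566-74270835, plus strand): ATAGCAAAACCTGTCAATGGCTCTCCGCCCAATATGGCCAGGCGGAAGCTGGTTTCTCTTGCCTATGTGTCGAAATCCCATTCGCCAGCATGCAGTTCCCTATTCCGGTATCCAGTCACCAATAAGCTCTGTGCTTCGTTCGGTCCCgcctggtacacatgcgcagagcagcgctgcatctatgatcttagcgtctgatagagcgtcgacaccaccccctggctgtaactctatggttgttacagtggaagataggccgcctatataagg
Rps24 (chr14:24490428-24490697, plus strand): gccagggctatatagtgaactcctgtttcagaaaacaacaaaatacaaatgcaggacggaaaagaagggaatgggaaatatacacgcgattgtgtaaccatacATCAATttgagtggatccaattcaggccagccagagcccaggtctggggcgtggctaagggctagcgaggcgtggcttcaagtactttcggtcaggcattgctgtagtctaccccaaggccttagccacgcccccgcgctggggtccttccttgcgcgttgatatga

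Promoter windows of 300 bases (250 before to 50 after the start) were at hand for 70 of the 91 genes, with 82 windows in all. The letters ATTGAT, on either strand, were in 3 of the 82 windows (3.66%), against 6.54% of 21263 windows of all protein-coding genes. They belonged to Rps9 and to the 2 overlapping windows of Rps24. The letters ATCGAT, which read the same on both strands, were in 0 of the 82 windows, against 0.856% of all windows. A C followed by 4 pyrimidines at the start itself was in 15 of the 82 windows (18.3%), against 2.21% of all windows. This match needs the annotated start to be exact to the base, which was not checked, so tracts near a start were not counted. Of these 15, Rps18 alone had a shared region within 3 kb of an end, and Rps27 had one farther out, at 6.54 kb. Only 7 of the 10 genes with a shared region within 3 kb had a promoter window. The CCAAT letters, on either strand, were in 30.5% of the windows, against 38.2% of all windows. A match is a description of the letters and not of a bound site.

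Shared regions lay within 3 kb of ribosomal protein genes at a higher share than of other protein-coding genes. At this window the share was close to that of other genes of translation, but not at 1 or 10 kb for mitochondrial ribosomal protein genes. Within 3 kb of an end, 10 of the 91 genes had a shared region (10.99%), against 5.30% of the 21796 other protein-coding genes. These were 5 of 46 core genes of the large subunit, 4 of 31 core genes of the small subunit and 1 of the 14 others. In single lists, 24 of the 91 genes (26.4%) had a peak within 3 kb in replicate 1, against 18.4% of other genes. In replicate 2, 14 genes had one (15.4%), against 10.2% of other genes. In replicate 3, 22 genes had one (24.2%), against 15.7% of other genes. The share was thus higher at ribosomal protein genes in 3 of 3 lists, by 7.21 ± 1.78 percentage points (SD, n = 3 lists). An exact two-sided sign-flip permutation test over the 3 lists gave p = 0.25, the smallest that 3 lists allow, so this difference cannot pass 0.05 in this design. By their peak names the lists were also called against the same control, so they are not independent.

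The size of the difference turned on how gene length was handled. Ribosomal protein genes had a median span of 3.17 kb, against 17.3 kb for other genes, and 89 of the 91 spanned at most 10 kb. Among the 7837 other genes of at most 10 kb, 3.73% had a shared region within 3 kb of an end. Single lists had a peak within 3 kb at 13.4%, 7.76% and 12.0% of these short genes, which left ribosomal protein genes higher by 10.9 ± 2.88 percentage points (SD, n = 3 lists; exact sign-flip permutation test, p = 0.25). When only peaks inside the gene counted, the direction turned. Shared regions lay inside 6 of the 91 genes (6.59%), against 9.54% of other genes and 2.02% of other short genes. In replicates 1, 2 and 3, 12.1%, 6.59% and 15.4% of ribosomal protein genes held a peak inside, against 29.7%, 17.3% and 25.8% of other genes. With the span and 3 kb on both sides counted together, 10 of the 91 genes had a shared region (10.99%), against 11.5% of other genes, so the shares were close. The single lists then gave 26.4%, 15.4% and 25.3% of ribosomal protein genes, against 35.6%, 21.2% and 31.3% of other genes. Against short genes the difference stayed positive in both windows, at 5.97 and 11.05 percentage points.

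Around gene ends, the family was higher at each distance. A window of 1 kb gave 8 genes with a shared region (8.79%), against 3.27% of other genes. Single lists gave 16.5%, 10.99% and 18.7% of ribosomal protein genes at 1 kb, against 10.1%, 6.03% and 8.62% of other genes. A window of 10 kb gave 14 genes with a shared region (15.4%), against 9.82% of other genes. Single lists gave 39.6%, 24.2% and 35.2% at 10 kb, against 36.1%, 19.8% and 31.4% of other genes. The median distance to the nearest shared region was 134 kb for ribosomal protein genes, against 152 kb for all other genes and 202 kb for other short genes. This order did not hold throughout. Without replicate 3 the medians were 104 kb for ribosomal protein genes and 100.1 kb for all other genes. The median distance to the nearest peak of a single list was 17.0, 58.8 and 23.1 kb for ribosomal protein genes in replicates 1, 2 and 3, against 14.5, 52.5 and 21.4 kb for all other genes, so ribosomal protein genes were farther in each list. A peak inside the gene counts as distance 0, and other genes are longer. Other short genes were not compared in single lists. The median gene of the family had no shared region nearby.

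Other gene lists were set beside the family at the same window of 3 kb. Of 78 mitochondrial ribosomal protein genes, whose products work in the separate ribosome of mitochondria, 8 had a shared region (10.3%), among them Mrpl22, Mrpl4, Mrps22 and Mrpl53. Of 67 genes of translation initiation and elongation factors, 8 had one (11.9%), led by Eif2b3, Eif4b, Eif3h and Eif1b. Of 38 genes chosen as highly transcribed in fibroblasts outside the ribosome, 6 had one (15.8%), led by Hsp90ab1, Col3a1, Tubb5 and Vim. Of 26 ribosome biogenesis genes, 1 had one (Bysl, 3.85%). By share, cytosolic ribosomal protein genes stood between the mitochondrial ribosomal and the translation factor genes, and below the highly transcribed genes. The order moved with the window. At 1 kb their 8.79% stood above the 6.41% of mitochondrial ribosomal and the 5.26% of highly transcribed genes, and below the 10.4% of translation factor genes. At 10 kb their 15.4% stood below the 21.8% of mitochondrial ribosomal and the 18.4% of highly transcribed genes, and just above the 14.9% of translation factor genes. In single lists at 3 kb, the translation factor genes had a peak at 29.9%, 22.4% and 31.3% of genes in replicates 1, 2 and 3, and the highly transcribed genes at 42.1%, 28.9% and 42.1%. Both were above ribosomal protein genes in every replicate. Mitochondrial ribosomal protein genes had a peak at 23.1%, 14.1% and 26.9%. These shares were below those of cytosolic ribosomal protein genes in replicates 1 and 2 and above in replicate 3. The median span was 15.0 kb for translation factor genes, 5.08 kb for highly transcribed genes and 7.69 kb for mitochondrial ribosomal protein genes. The differences between these lists were not tested.

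**Figure D1:**
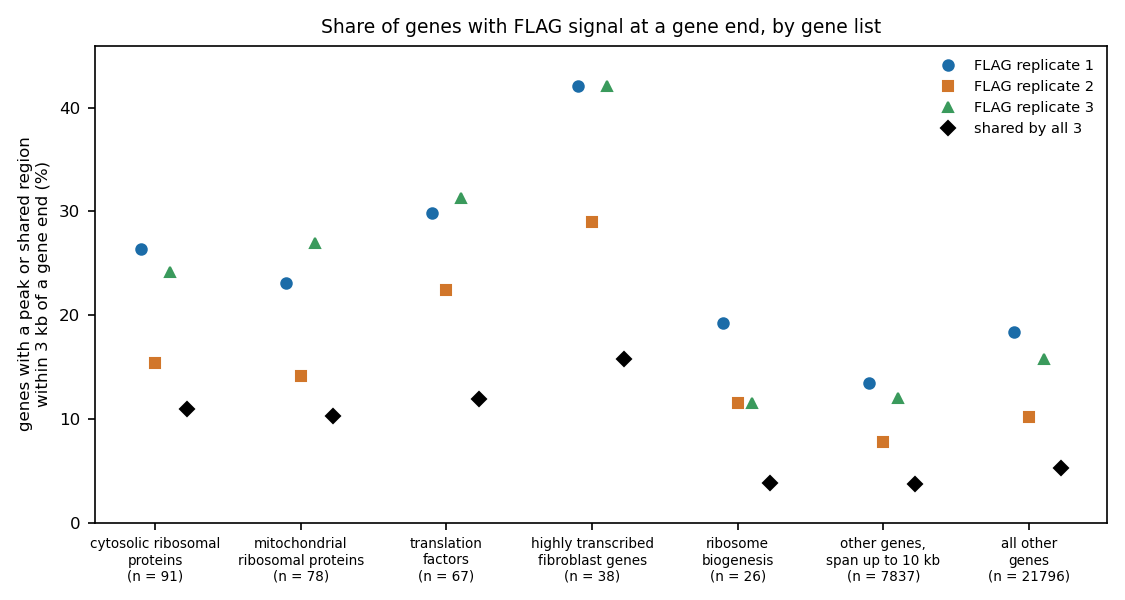
Percent of genes (y axis) with a FLAG peak within 3 kb of a gene end in each replicate (colored points) or with a region shared by all 3 (diamonds), for each gene list on the x axis with its number of genes. Cytosolic ribosomal protein genes lie at 26.4%, 15.4% and 24.2% in replicates 1, 2 and 3, above all other genes (18.4%, 10.2% and 15.7%) and below the highly transcribed genes in every replicate.

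Most ribosomal protein genes had no peak within 3 kb of an end, and the same held for other genes. No list had such a peak at 58 of the 91 genes (63.7%), against 73.4% of other genes. None had a peak within 10 kb at 45, a count not made for other genes. A peak within 3 kb was in 1 list at 16 genes (17.6%, other genes 14.8%) and in 2 lists at 7 (7.69%, other genes 6.04%). It was in all 3 lists at 10 (10.99%, other genes 5.82%). In percent, 36.3% of ribosomal protein genes had a peak in at least 1 list, against 26.6% of other genes. The 10 genes with a shared region lie on 8 chromosomes, and no 2 of them share a region. None of the 91 genes lies on chromosome 19. Without that chromosome, 5.13% of other genes had a shared region. A snoRNA gene lay inside 30 of the 91 genes, as is common for this family. Of these 30, 3 were among the 10 genes with a shared region, a share close to the 10.99% of all 91 genes. Neither count was made for other genes.

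The strongest signal of the family was at Rplp1, which encodes the acidic stalk protein P1 that helps recruit elongation factors. Its region (chr9:61914393-61914762) overlaps the end of the gene at the higher coordinate. The folds in replicates 1, 2 and 3 were 6.66 (q = 7.73e-10), 8.63 (q = 9.44e-16) and 7.96 (q = 3.63e-13). These were above 99.0%, 99.5% and 99.6% of all peaks of the 3 lists, and the summits fell on the same base. Rplp1 was also the only 1 of the 10 genes whose region was still shared when a fold of at least 5 was required. The summit lay 79 bp from Rplp1 and 2.69 kb from an end of Kif23, which encodes a kinesin needed for cytokinesis. Rplp0, whose product P0 anchors P1 in the stalk, had the next highest mean fold. Its region (chr5:115559264-115559575) had folds of 5.36 (q = 1.18e-07), 4.91 (q = 1.71e-06) and 5.75 (q = 2.60e-09) in replicates 1, 2 and 3. The 3 summits lay within 7 bp of each other, on average 23.7 bp upstream of the annotated start, in the stretch printed in capitals above. A second, weaker region past the other end of Rplp0 had folds of 2.59 and 2.53 in replicates 1 and 3, with q of 0.369 and 0.479, and no peak in replicate 2.

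Among the other large subunit genes, Rpl3, which encodes a protein at the peptidyl transferase center, had a region (chr15:80083129-80083676) across its end at the higher coordinate. Its folds were 5.60 (q = 2.07e-08), 3.74 (q = 0.00533) and 3.94 (q = 0.00114) in replicates 1, 2 and 3. The fold in replicate 1 was above 86.0% of shared peaks of that list, while those in replicates 2 and 3 were below the median of theirs. Rpl18 had a region (chr7:45715355-45715625) with folds of 3.45, 2.90 and 3.22, with the summits on average 22 bp downstream of the 5′ end of the gene span. All 3 were weak, with q of 0.00572, 0.0466 and 0.0353, but they agreed in position within 28 bp. From the nearest start of a promoter window of Rpl18, however, they lay at -2568, -2596 and -2582 bp in replicates 1, 2 and 3 (negative is upstream). The end of Sphk2 lies 2.51 kb from the same summits.

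Among small subunit genes, Rps18, of the head of the subunit, had a region inside the gene (chr17:33953970-33954280). The summits lay on average 1538 bp from its 5′ end, with folds of 4.03, 4.35 and 4.84. The q values were 0.00125, 0.000201 and 2.68e-05, so each list holds this peak at q below 0.05. Ends of Vps52 and B3galt4 also lie within 3 kb of it. Rps24 had a region inside the gene (chr14:24491147-24491621) with folds of 4.54, 3.62 and 4.46, centered 794 bp downstream of the 5′ end and so outside the promoter printed above. Under the stricter overlap of at least 50% of both peaks, Rps24 was the 1 gene of the 10 that lost its shared region. Rps23, of the decoding center, had a region (chr13:90922574-90922909) 386 bp upstream of its start by mean summit, with folds of 2.89, 3.29 and 4.63. Rpsa, which encodes a protein also known as the laminin receptor, had a region (chr9:120127001-120127286) 661 bp upstream, with folds of 3.01, 3.60 and 4.43. For Rps23 and Rpsa, q was 7.65e-07 and 0.000656 in replicate 3, and 0.0547 and 0.197 in replicate 1. Rps19bp1 was the 1 gene outside the core set with a shared region. The region (chr15:80266198-80266541) lay 2.09 kb upstream of the gene with folds of 2.94, 5.02 and 2.33, and the peak in replicate 3 had q = 0.479.

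**Figure D2:**
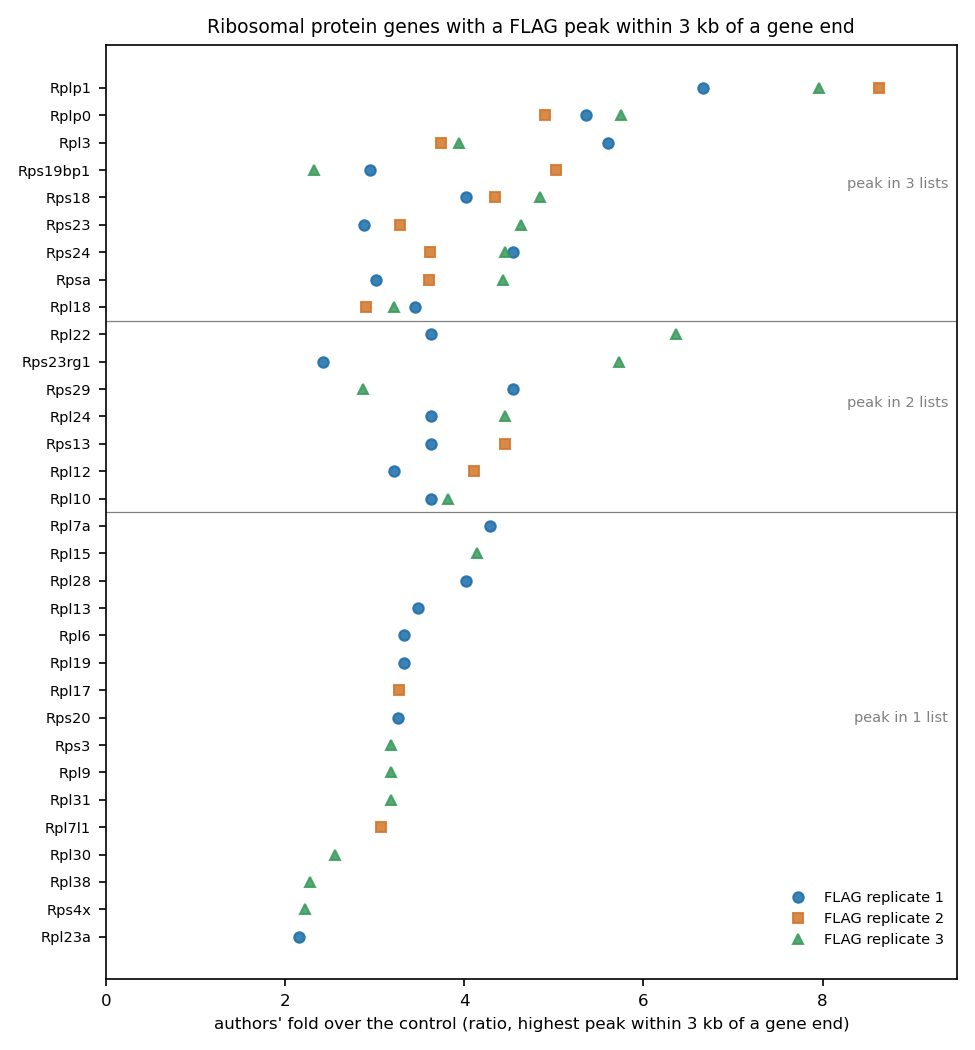
Authors' fold over the control (x axis, a ratio) of the highest peak within 3 kb of a gene end, for 32 of the 33 ribosomal protein genes with such a peak in any of the 3 FLAG replicates; genes are grouped by the number of lists with a peak. Rplp1 stands highest in replicates 1, 2 and 3 (6.66, 8.63 and 7.96), and most genes with a peak in 1 list lie between 2 and 4.

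Genes with a peak in exactly 2 lists were Rpl10, Rpl12, Rpl22, Rpl24, Rps13, Rps23rg1 and Rps29. Rpl22, which encodes a large subunit protein, had a fold of 3.63 in replicate 1 and 6.37 in replicate 3 (q = 1.46e-08), inside the gene 41 and 42 bp downstream of an internal annotated start. The fold in replicate 3 was above 98.4% of that list, yet replicate 2 had no peak. Rps23rg1, a retroposed relative of Rps23, had 2.42 in replicate 1 and 5.73 in replicate 3 (q = 6.75e-07). Its peak in replicate 1 was among the weakest, with a pileup of 7 fragments. Rpl24 had 3.63 and 4.46 in replicates 1 and 3, and Rps13 had 3.63 and 4.46 in replicates 1 and 2. Rpl10, with the upstream stretch printed above, had 3.63 and 3.82 in replicates 1 and 3. In all, 17 of the 91 genes (18.7%) had a region in at least 2 lists within 3 kb, against 10.5% of other genes. Another 4 genes had a shared region farther out, within 10 kb. These were Rpl23a at 3.77 kb, Rps16 at 5.56 kb, Rps27 at 6.54 kb and Rpl5 at 8.65 kb, of which the region near Rpl23a was closer to an end of Tlcd1 (285 bp) and that near Rps27 closer to an end of Rab13.

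By position, strand was known for 7 of the 10 genes with a shared region, and in these 7 the mean summit lay nearer to the 5′ than to the 3′ end. The same count was not made for other genes. Among genes of known strand spanning at least 2 kb, 4 of 56 ribosomal protein genes (7.14%) had a shared region within 500 bp of the 5′ end, namely Rpl18, Rplp0, Rps24 and Rpsa. At other genes this share was 2.52%. The 5′ end is that of the gene span, and by the start of its promoter window Rpl18 would not lie within 500 bp. Within 500 bp of the 3′ end the counts were 0 of 56, against 0.340% of other genes. Both groups thus had more shared regions at 5′ than at 3′ ends. Single lists had a peak within 500 bp of the 5′ end at 5, 3 and 5 of the 56 genes in replicates 1, 2 and 3 (8.93%, 5.36% and 8.93%), against 6.27%, 4.15% and 5.64% of other genes. Within 500 bp of the 3′ end these counts were 1, 0 and 3 of the 56 (1.79%, 0% and 5.36%), against 1.78%, 0.753% and 1.32%. The comparison of 5′ with 3′ ends was chosen after the data had been seen.

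**Figure D3:**
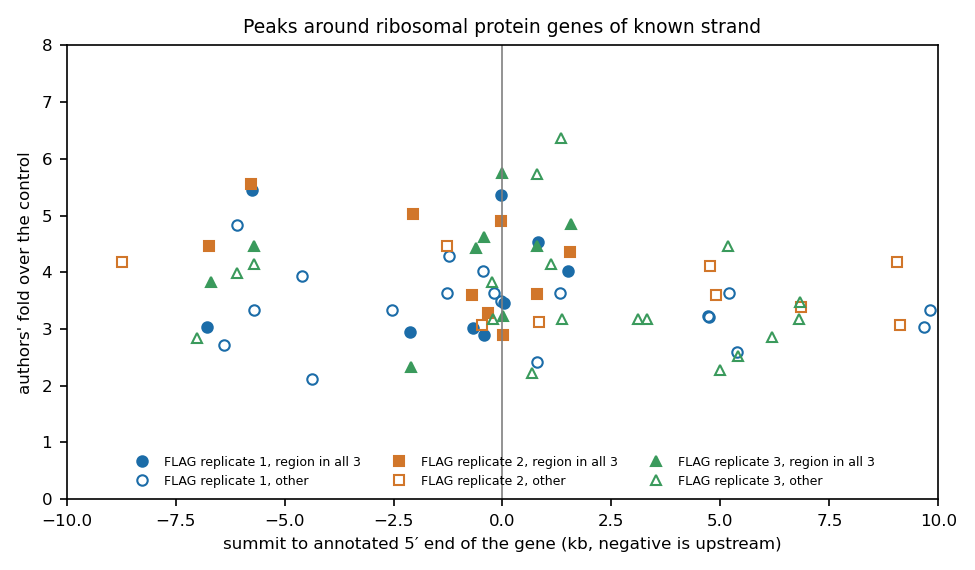
Distance in kb from the annotated 5′ end of each ribosomal protein gene of known strand to peak summits (x axis, negative is upstream) and the authors' fold over the control (y axis), for FLAG replicates 1, 2 and 3; filled symbols belong to regions shared by all 3 lists. The filled symbols nearest to 0 are those of Rplp0, at folds of 4.91 to 5.75, and of Rpl18, at 2.90 to 3.45. The 5′ end is that of the gene span, and the peaks of Rpl18 lie far upstream of the start of its promoter window.

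In height, peaks at ribosomal protein genes were much like peaks at other genes. The median fold of peaks within 3 kb of an end was 3.47, 3.74 and 3.94 in replicates 1, 2 and 3, against 3.26, 3.90 and 3.50 at other genes. It was higher at ribosomal protein genes in 2 of 3 lists, by 0.165 ± 0.307 (SD, n = 3 lists; exact two-sided sign-flip permutation test, p = 0.5), a difference smaller than its spread. A fold of 5 was reached by 3 of 26, 3 of 15 and 4 of 23 peaks (11.5%, 20% and 17.4%), against 9.19%, 21.0% and 11.4% of peaks at other genes. Within the 10 shared regions, the median fold was 3.74, 4.04 and 4.45 in replicates 1, 2 and 3, against 3.94, 4.18 and 4.05 over all 5114 shared regions.

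In the control, the background was raised behind many of these peaks and behind many peaks at other genes. Fold and p together give the ChIP pileup and the expected background in replicates 1 and 3, and the lowest background that the caller allows over the genome was 2.30 and 2.14 fragments, called the floor here. In replicate 1, 16 of 26 peaks within 3 kb of a ribosomal protein gene had a background above the floor (61.5%, exact 95% interval 40.6% to 79.8%, counting error only), against 45.5% of peaks at other genes. In replicate 3, 11 of 23 did (47.8%, 26.8% to 69.4%), against 50.5% at other genes, so the 2 lists differ in direction. Both intervals include the value of other genes, but they treat the peaks of a single library as independent. The difference from other genes was not tested. With peaks of q of at most 0.05, the share in replicate 1 was 53.3%, against 53.0% at other genes. In replicate 3 it was then 50.0%, against 51.2%. Among the 10 shared regions the background was above the floor at 8 in both replicates, against 48.5% and 48.1% of all shared regions. All shared regions include those far from gene ends, and raised background was less common in the whole lists (34.4% and 38.5% of peaks). Shared regions at the ends of other genes were not counted apart. The background was at the floor at Rplp1 and Rps24, and at Rpsa it was 2.32 and 2.16 fragments, barely above. It was highest at Rps19bp1 (5.45 and 5.02 fragments) and at Rps23 (4.54 and 4.18). At Rplp0 it was 3.11 and 3.35 fragments, under pileups of 21 and 24. At Rplp1 the pileups were 21 and 24 as well, and no raised background stood beside them. Both lists name the same input as control, so the second is no independent measure of it. The part of this background in the counts above was not tested. Whether cells without induced Onecut3 give these peaks with the FLAG antibody was not tested.

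**Figure D4:**
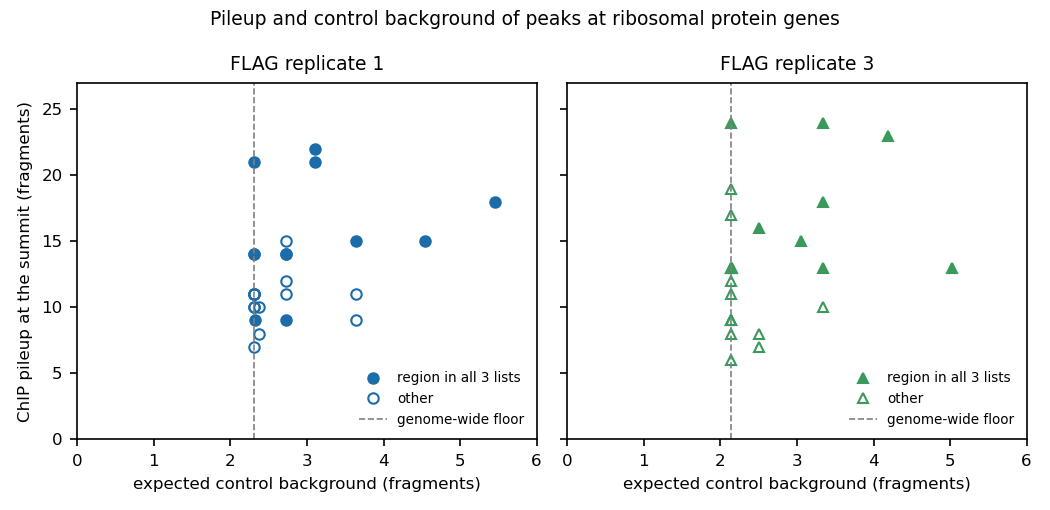
ChIP pileup at the summit (y axis, fragments) and expected control background (x axis, fragments) of peaks within 3 kb of a ribosomal protein gene in FLAG replicates 1 and 3; filled symbols are regions shared by all 3 lists and the dashed line is the genome-wide floor. Most filled symbols lie right of the floor, with the highest background at 5.45 and 5.02 fragments, while Rplp1 stands on the floor with pileups of 21 and 24.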

How the data were processed

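ChIP-Seq peak lists of the 3 ONECUT3-OE FLAG replicates were analysed. GRCm38, MACS2 2.1.0, Bowtie2 2.2.6 and deepTools 3.3.2 stand in the processing notes of the submitters without a stated role; the paper names MACS, and the peak names show calling per sample against an input. How reads of near-identical ribosomal protein copies were filtered or placed is not given in the sources used here. The lists deposited by the authors give a fold (a ratio), a score that follows the p-value, and the -log10 of the p-value and q-value. Lists, members and tests were chosen with earlier results of these data known. A gene counted where a peak or region overlapped 3 kb around either end of its span; mitochondrial-genome genes were left out. Within-list differences were tested by exact sign-flip permutation. Pileup and background were solved from fold and p (tolerance 0.001 in -log10 p) in 100.0% of peaks of replicates 1 and 3, and in 0.140% of replicate 2, which was left out. Named were genes with a shared region within 3 or 10 kb, or peaks in 2 lists, and up to 4 genes per comparison list; counts cover all genes, but results of some single genes are not reported here. Alternatives were other thresholds, overlaps, windows, chromosomes and gene sets, and each replicate left out. Regions in 2 lists, the 5′ against 3′ ends and pseudogenes were added after the data were seen. Counting was checked on simulated data. Work was done in Python 3.11.15 with pandas 2.3.3, numpy 2.4.6, matplotlib 3.10.9 and scipy 1.17.1.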

Additional observations from a re-analysis of the deposited data

How the results depend on the processing

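Of 71 alternative values for the comparisons, 57 were counted as kept, by a rule that differed between results. Within-list differences had to keep their direction, and the median distance had to stay within its spread over lists. The share with raised background had to stay within its interval. The percent with a shared region had to stay near its main value at ribosomal protein genes, whatever other genes did. Inside the gene or within 3 kb was thus counted as kept at 10.99%, although other genes then had 11.5%. Regions in at least 2 lists were an alternative chosen after seeing the data. The percent of ribosomal protein genes with a shared region was 6.59% with peaks of q of at most 0.05 (other genes 3.58%), 1.10% with a fold of at least 5 (1 gene, other genes 0.817%), 6.59% inside the gene (other genes 9.54%) and 18.7% for regions in at least 2 lists. It was 10.99% to 16.5% with 1 replicate left out, the highest without replicate 2 (15 genes, other genes 7.88%), since a region then needs peaks in 2 lists only. The within-list difference in genes with a peak turned to -12.9 percentage points inside the gene and -7.02 inside the gene or within 3 kb. Longer genes offer more bases to these 2 windows, and against other genes of at most 10 kb the differences there were 5.97 and 11.05 points. The median distance to a shared region was 180 kb at q of at most 0.05, 1519 kb at a fold of at least 5, 178 kb at 50% overlap, 39.0 kb for regions in at least 2 lists and 55.2 to 108 kb with 1 replicate left out. Against other genes it was smaller in each of these settings except without replicate 3 (104 kb, other genes 100.1 kb). Peaks with raised background in replicate 3 came to 25.0% with a fold of at least 5, where 4 peaks were left. Pileups are near 10 fragments for a typical peak, so a gene without a peak may lie below detection. No paired analysis was possible because only 1 group has peak lists here.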

Other observations

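Ribosomal protein pseudogenes carry much of the sequence of ribosomal protein exons and are mostly not transcribed. Of 310 pseudogenes with such symbols, 0 held a peak of replicate 1 or 2 inside the gene and 1 held a peak of replicate 3, against 1.85%, 0.778% and 1.52% of 9634 other pseudogenes. Within 3 kb of an end, 7 of the 310 (2.26%) had a shared region, against 1.11% of other pseudogenes. Single lists had a peak there at 8.06%, 4.52% and 5.48% in replicates 1, 2 and 3, against 7.20%, 2.82% and 5.34%. The 2 groups were thus close in replicates 1 and 3. How reads of near-identical copies were placed is not given, as said above. The lengths of both groups were not compared. These comparisons were chosen after the data had been seen.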
